A study of Mus musculus with 36 samples.

Results

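The genes described here were chosen by their sham levels. They are the 100 rows of the expression table that carry the biotype antisense and that averaged at least 2 RPKM (reads scaled to gene length and library depth) over the 6 sham libraries of at least 1 brain region. The table holds 31554 genes, of which 1376 are antisense rows. The libraries came from adult male C57BL/6 mice, 2.5 months after spared nerve injury (SNI) or sham surgery of the sciatic nerve. SNI cuts some branches of the nerve and spares another, and is a model of lasting neuropathic pain. Nucleus accumbens (NAc), prefrontal cortex (PFC) and periaqueductal grey (PAG) each had 6 SNI and 6 sham libraries, 36 in all. The mice carried no transgene or allele that the labels name, and sham mice are operated on without the cut. Each library was made from pooled RNA by the labels' protocol, with no number of mice given, so p-values speak of the variation among pools, part of which may be technical.

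Natural antisense transcripts are made from the strand opposite to another gene, and many are polyadenylated and non-coding. Some regulate the gene they face, through the act of transcription at a shared promoter, through pairing of the RNAs or through chromatin, while many have no known role. Near genes of developmental transcription factors, as at the Dlx and Six3 loci of the mouse forebrain, such transcripts are often made in the same tissue as the factor.

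No source used here gives the strand setting of the read counting, and the library kit named in the labels does not keep the strand. Reads over bases that an antisense gene shares with an exon of the opposite strand therefore cannot be told apart from reads of the other gene. By the GENCODE M21 annotation, which is on the same genome build and matched 98 of the 100 genes, 58 of 98 had exonic bases under an exon of the other strand and 40 had none. The share of such bases was at least 50% in 7 genes and reached 87.3% in Gm17344, which faces Ap1g1, a subunit of the clathrin adaptor AP-1.

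Names say little about these genes: 57 had a Gm number, 30 a Rik clone name and 5 an RP clone name. Only 3 names in the table gave the sense gene, Dlx1os, Dlx6os1 and Six3os1, and M21 symbols gave it for 17 more. A coding gene on the other strand within 50000 bases was found for 97 genes. Genes sharing exons were taken first, then those with overlapping bodies, and within each class the one with the nearest start. Exons overlapped in 55 of these pairs and the member lay within or across introns in 20. In 12 pairs the start sites lay within 1000 bases with the gene bodies apart, and in 10 pairs there was no overlap and no shared start. Gm17024 had no such neighbour. M21 itself still calls 83 of the 98 matched genes antisense, 4 lincRNA, 4 processed transcripts and 3 protein coding (5430417L22Rik, now Inafm2, 1810010H24Rik and Fcor).

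The promoters of 3 members called higher in 1 region than in both others are shown because those members sit beside factors that mark these regions. They are RefSeq windows on GRCm38.p6 of 250 bases before the start in lower case and the first 50 transcribed bases in capitals. RefSeq held a window for 46 of the 100 genes.
C130021I20Rik: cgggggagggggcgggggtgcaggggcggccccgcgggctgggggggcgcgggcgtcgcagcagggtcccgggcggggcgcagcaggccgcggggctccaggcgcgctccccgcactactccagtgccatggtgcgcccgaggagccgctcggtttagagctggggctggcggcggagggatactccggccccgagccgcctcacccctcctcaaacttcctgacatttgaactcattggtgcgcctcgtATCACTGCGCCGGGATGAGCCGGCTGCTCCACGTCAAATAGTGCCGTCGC
Six3os1: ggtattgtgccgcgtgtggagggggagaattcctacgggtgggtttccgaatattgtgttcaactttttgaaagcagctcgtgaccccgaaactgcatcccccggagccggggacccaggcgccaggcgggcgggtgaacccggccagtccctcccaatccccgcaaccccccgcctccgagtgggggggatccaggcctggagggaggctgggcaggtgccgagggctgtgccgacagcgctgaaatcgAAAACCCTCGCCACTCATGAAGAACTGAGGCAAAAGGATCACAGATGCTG
Dlx6os1: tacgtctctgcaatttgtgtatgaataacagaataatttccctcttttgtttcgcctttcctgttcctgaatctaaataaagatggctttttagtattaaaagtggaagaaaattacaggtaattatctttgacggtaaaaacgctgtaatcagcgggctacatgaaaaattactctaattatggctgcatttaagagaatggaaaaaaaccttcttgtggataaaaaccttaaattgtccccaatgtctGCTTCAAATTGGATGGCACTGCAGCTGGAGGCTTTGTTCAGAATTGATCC
The C130021I20Rik window lies at chr2:33640943-33641242 on the plus strand, beside Lmx1b. Six3os1 has its window at chr17:85618347-85618646 on the minus strand, and the nearer of 2 windows of Dlx6os1 is chr6:6869484-6869783, minus strand, with its start 2059 bases from the M21 start of that gene. GC content was 73.3%, 63.0% and 35.7% in that order, against a median of 52.7% over all 32851 windows. The windows held 34, 20 and 5 CG dinucleotides, against a median of 7. The letters TAATTA, a core sequence that many homeodomain proteins bind and that reads the same on both strands, occurred at 2 places in the Dlx6os1 window and at 0 in the other printed windows, while 5.29% of all windows held it. The letters TATAAA, searched on both strands, occurred in none of the 3, and 13.6% of all windows held them.

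Library depth was 27.6 to 64.9 M assigned reads. In the shallowest, 2 RPKM over 1 kb came to 55.2 reads, whose counting error is 13.5%. Regional markers followed the labels: the summed level of 7 measured medium spiny neuron genes was 1131 to 1780 RPKM in NAc SNI libraries and at most 107.3 RPKM in any SNI library of PFC or PAG. Libraries of a region were uneven, and 7 cortical excitatory genes summed to 4.03 to 234 RPKM in NAc SNI libraries and 3.45 to 178 RPKM in NAc sham libraries. The oligodendrocyte sum was 221 to 1066 RPKM in PFC SNI libraries and 240 to 888 RPKM in PFC sham libraries. In bulk tissue, fewer cells of a type and less RNA per cell cannot be told apart.

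Most of these antisense genes reached the threshold in more than 1 region. Among the 100, 45 reached 2 RPKM in sham means in all 3 regions, 22 in exactly 2 and 33 in exactly 1. The highest sham mean was in NAc for 38, in PFC for 28 and in PAG for 34, and the SNI libraries had the same highest region for 88 of 100. The median ratio of the highest to the second region was 1.25 with 0.5 RPKM added to both means, it was at least 2 in 16 genes and at least 4 in 11. These counts describe the values that chose the genes. Just inside the threshold were Gm12279 at 2.07 RPKM, near the ubiquitin gene Ubb, and Gm16054 at 2.13 RPKM, over exons of the adhesion receptor gene Adgrl3. Just outside were Gm3693 at 1.99 RPKM and BC051226 at 1.98 RPKM.

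Gm17344 had the highest sham mean of all, and stood at 14.9 RPKM or more in every SNI library of the 3 regions. It averaged 17 ± 1.73 RPKM in NAc SNI libraries, 16.5 ± 1.19 RPKM in PFC SNI libraries and 20.4 ± 0.945 RPKM in PAG SNI libraries (SD, n = 6 each). With 87.3% of its exonic bases under exons of the other strand, where Ap1g1 had a PAG SNI mean of 20.7 RPKM, its level is uncertain. 1700012B15Rik, named Rab10os in M21 and set against the trafficking GTPase gene Rab10, averaged 10.6 ± 0.887 RPKM in NAc, 10.8 ± 0.707 RPKM in PFC and 13.5 ± 1.08 RPKM in PAG SNI libraries, and shared 2.33% of its exonic bases.

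5430417L22Rik had 12 ± 0.66, 9.66 ± 0.395 and 8.29 ± 0.747 RPKM in SNI libraries of NAc, PFC and PAG, and Gm16185, in an intron of the mitochondrial carrier gene Slc25a36, had 5.37 ± 0.613, 6.17 ± 0.971 and 5.20 ± 0.557 RPKM. 4930579G18Rik, facing the RNA-binding gene Acin1, had 5.49 ± 0.711, 7.36 ± 0.674 and 6.12 ± 0.737 RPKM. Gm13375, whose start lies 173 bases from that of the GTPase activator gene Arhgap21, had 4.69 ± 0.394, 6.04 ± 0.600 and 6.46 ± 0.763 RPKM. Fcor, a corepressor of Foxo1 that M21 calls protein coding, had 7.55 ± 0.977, 4 ± 0.662 and 3.96 ± 0.739 RPKM. None of these 5 passed a fold of 2 with an adjusted p under 0.05 between any 2 regions.

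Differences between regions were tested in the 18 SNI libraries, since the sham libraries had chosen the genes. The test was limma on log2(RPKM + 0.5), two-sided, with Benjamini-Hochberg adjustment over all genes tested, and calls were restricted to folds of at least 2 with an adjusted p under 0.05. The added 0.5 makes the fold changes of low genes too small. NAc against PFC called 12 of 100 members, 6 higher and 6 lower, where 7% of all genes were called, 3.29% higher and 3.71% lower. NAc against PAG called 25, 15 higher and 10 lower, where 12.9% of all genes were called, 5.85% higher and 7.09% lower. PFC against PAG called 28, 18 higher and 10 lower, where 13.2% of all genes were called, 5.89% higher and 7.31% lower. A gene that entered through 1 region alone has a low level in the others by that choice, so the members' share is not read against that of all genes.

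Gene positions are those of M21 on GRCm38. In all, 15 members were at least 2-fold higher in 1 region than in both others, 4 in NAc, 4 in PFC and 7 in PAG. Another 13 were at least 2-fold lower in 1 region than in both others, 11 of them in PAG. No share of all genes is given for these counts by region. The choice of members by sham levels also shapes them, so they are a description and not a trait of antisense genes.

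**Figure D1:**
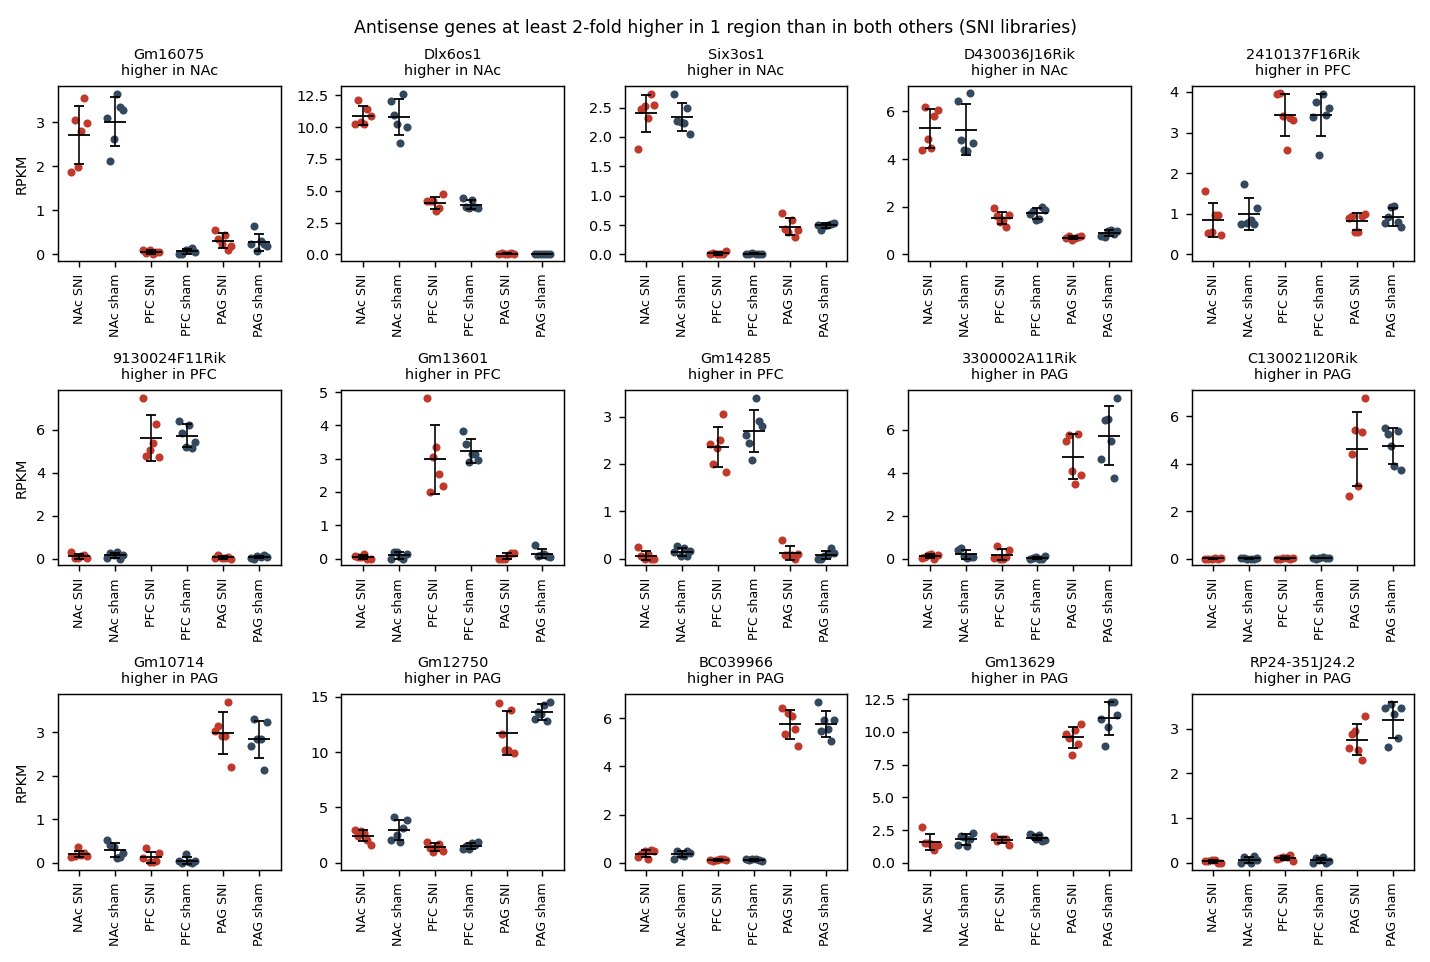
Level in RPKM (vertical axis, linear) of the 15 antisense genes called at least 2-fold higher in 1 region than in both others, in the 6 groups of 6 libraries. Points are libraries, red for SNI and dark blue for sham, and bars are mean ± SD; Dlx6os1 also shows a middle level in PFC, and D430036J16Rik, 2410137F16Rik, Gm12750 and Gm13629 show levels above 0 in each region.

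Dlx6os1 (chr6:6820189-6871592, minus strand), the transcript also known as Evf2, runs through the locus of Dlx5 and Dlx6, homeobox factors of GABAergic neurons. It had 10.2, 10.7 and 12.2 RPKM (lowest, median and highest) in NAc SNI libraries, 3.43, 4.18 and 4.75 RPKM in PFC SNI libraries and 0.0107, 0.0503 and 0.0901 RPKM in PAG SNI libraries. The 3 regions did not overlap. The log2 fold change was 4.36 ± 0.07 (SE) for NAc against PAG (adjusted p = 1.1e-19) and 1.33 ± 0.07 for NAc against PFC (adjusted p = 5.9e-12). Sham libraries had the same order, with means of 10.8 RPKM in NAc, 3.89 RPKM in PFC and 0.0338 RPKM in PAG. Dlx6 itself averaged 11.8 ± 1.59 RPKM in NAc, 1.47 ± 0.137 RPKM in PFC and 0.0345 ± 0.00848 RPKM in PAG SNI libraries. In PFC the antisense gene was therefore at the higher level per length of the pair, and in NAc both were close.

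Six3os1 (chr17:85600651-85618398, minus strand), beside the anterior forebrain homeobox gene Six3, had 1.80, 2.50 and 2.73 RPKM in NAc SNI libraries, at most 0.0665 RPKM in PFC SNI libraries and 0.301, 0.431 and 0.704 RPKM in PAG SNI libraries. NAc stood above the other regions in every library. The log2 fold change was 2.48 ± 0.09 for NAc against PFC (adjusted p = 1.0e-13) and 1.58 ± 0.09 for NAc against PAG (adjusted p = 2.8e-11). Six3 followed the same order, with means of 10.8 RPKM in NAc, 0.0702 RPKM in PFC and 1.83 RPKM in PAG SNI libraries.

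D430036J16Rik (chr9:81631551-81645156, plus strand) overlaps exons of Htr1b, the serotonin 1B receptor, and has 38.1% of its exonic bases under exons of the other strand. It had 4.4, 5.33 and 6.17 RPKM in NAc SNI libraries, 1.16, 1.53 and 1.93 RPKM in PFC SNI libraries and 0.602, 0.712 and 0.768 RPKM in PAG SNI libraries. Htr1b ordered the regions otherwise, with means of 10.5 ± 2.75 RPKM in NAc, 2.82 ± 0.468 RPKM in PFC and 6.00 ± 0.575 RPKM in PAG. PAG was thus the lowest region of the antisense gene and the middle region of the receptor gene.

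Gm16075 (chr11:75860969-75861494, plus strand) lies within an intron of Rph3al, an effector of Rab GTPases in vesicle release. Its levels were 1.88, 2.89 and 3.55 RPKM in NAc SNI libraries, at most 0.109 RPKM in PFC SNI libraries and 0.1, 0.296 and 0.559 RPKM in PAG SNI libraries. Rph3al had SNI means of 0.844 RPKM in NAc, 0.231 RPKM in PFC and 1.28 RPKM in PAG, so NAc was not its highest region.

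Of the PFC genes, 9130024F11Rik had the widest contrast. Levels were 0.0157, 0.0750 and 0.290 RPKM in NAc SNI libraries, 4.72, 5.23 and 7.48 RPKM in PFC SNI libraries and 0, 0.0436 and 0.170 RPKM in PAG SNI libraries. The log2 fold change was -3.34 ± 0.12 for NAc against PFC (adjusted p = 4.2e-14) and 3.44 ± 0.12 for PFC against PAG (adjusted p = 1.1e-14). Sham libraries of PFC had 5.16, 5.64 and 6.42 RPKM, within the range of the SNI libraries.

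Gm14285 (chr2:131561614-131563179, plus strand) faces Adra1d, the alpha-1D adrenergic receptor, and has 38.7% of its exonic bases under exons of the other strand. It had at most 0.243 RPKM in NAc SNI libraries, 1.84, 2.37 and 3.06 RPKM in PFC SNI libraries and at most 0.398 RPKM in PAG SNI libraries. Adra1d averaged 0.274 RPKM in NAc, 5.72 RPKM in PFC and 0.271 RPKM in PAG. 2410137F16Rik (chr5:116438720-116465487, plus strand), named Srrm4os in M21 for the neuronal splicing factor gene Srrm4, had 0.473, 0.759 and 1.56 RPKM in NAc, 2.56, 3.37 and 3.98 RPKM in PFC and 0.552, 0.916 and 0.986 RPKM in PAG SNI libraries. Srrm4 had its highest level in PFC as well, 11.1 ± 0.553 RPKM, against 3.79 ± 0.887 RPKM in NAc and 4.85 ± 0.226 RPKM in PAG.

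Gm13601 (chr2:67491044-67516525, minus strand) overlaps Xirp2, an actin-binding protein gene best known from muscle. It had at most 0.134 RPKM in NAc, 1.99, 2.80 and 4.82 RPKM in PFC and at most 0.179 RPKM in PAG SNI libraries. Xirp2 was lower per length than the antisense gene, at a PFC SNI mean of 0.390 RPKM, and too low to be tested.

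C130021I20Rik (chr2:33641193-33646354, plus strand) had the largest fold of PAG over NAc among the members. Its start lies 682 bases from that of Lmx1b, a LIM homeobox factor of midbrain and serotonin neurons, and the genes run apart without overlap. It had at most 0.0131 RPKM in NAc SNI libraries, at most 0.0142 RPKM in PFC SNI libraries and 2.62, 4.88 and 6.77 RPKM in PAG SNI libraries, with 3.74, 4.99 and 5.49 RPKM in PAG sham libraries. The log2 fold change was -3.28 ± 0.15 for NAc against PAG (adjusted p = 4.3e-13) and -3.27 ± 0.15 for PFC against PAG (adjusted p = 4.4e-13). Lmx1b averaged 0.0102, 0.0113 and 2.31 RPKM in NAc, PFC and PAG SNI libraries. Since the gene bodies do not overlap, shared exonic reads do not enter this pair. PAG SNI libraries also spread in the midbrain and raphe list, which summed to 200 to 357 RPKM, against 312 to 398 RPKM in PAG sham libraries. In that list Gata3 and Gata2 rose in PAG SNI libraries (log2 fold changes 0.35 and 0.37). Tph2 (-0.54), Slc6a4 (-0.51), Fev (-0.33), Slc17a6 (-0.07) and Otx2 (-0.06) did not pass.

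Gm12750 (chr4:109403794-109406155, minus strand), named Ttc39aos1 in M21, is a second gene with its start near that of a coding gene, 468 bases from Ttc39a. It had 1.63, 2.58 and 2.93 RPKM in NAc SNI libraries, 1.01, 1.40 and 1.86 RPKM in PFC SNI libraries and 9.96, 10.9 and 14.4 RPKM in PAG SNI libraries. Ttc39a averaged 0.572 RPKM in NAc, 0.345 RPKM in PFC and 3.43 RPKM in PAG, below the antisense gene in each region.

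Gm13629 (chr2:66440880-66546026, plus strand) faces Scn9a, the sodium channel Nav1.7 whose loss abolishes pain in humans and mice, and shares 15.7% of its exonic bases with exons of the other strand. It had 0.977, 1.48 and 2.74 RPKM in NAc, 1.37, 1.82 and 2.07 RPKM in PFC and 8.25, 9.67 and 10.6 RPKM in PAG SNI libraries. PAG stood apart from both other regions, with a log2 fold change of -2.31 ± 0.13 for NAc against PAG (adjusted p = 1.2e-11). Scn9a averaged 1.78 ± 0.198 RPKM in NAc, 0.631 ± 0.0963 RPKM in PFC and 3.84 ± 0.608 RPKM in PAG, so it also had PAG highest. SNI did not pass the test for Gm13629 in PAG, where 8.25, 9.67 and 10.6 RPKM stood against 8.94, 11.1 and 12.3 RPKM in sham libraries (log2 fold change -0.19 ± 0.08, adjusted p = 0.063).

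RP24-351J24.2 (chr5:120419659-120431767, minus strand), which overlaps exons of the LIM homeobox gene Lhx5, had at most 0.0645 RPKM in NAc, at most 0.165 RPKM in PFC and 2.31, 2.72 and 3.28 RPKM in PAG SNI libraries. Lhx5 had the same pattern, with means of 0.0458, 0.00957 and 1.79 RPKM.

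For 3 other PAG genes the coding neighbour stayed under a fold of 2 in both contrasts, with 0.5 RPKM added. Without the added 0.5, the Foxn3 means of PAG and PFC differed by slightly more than a fold of 2. BC039966 (chr4:153947633-153950503, minus strand) had 0.158, 0.429 and 0.538 RPKM in NAc, 0.0563, 0.124 and 0.173 RPKM in PFC and 4.86, 5.83 and 6.44 RPKM in PAG SNI libraries, while its neighbour A430005L14Rik, which it does not overlap, had means of 3.39, 5.21 and 5.76 RPKM. 3300002A11Rik (chr12:99341154-99361827, plus strand), in introns of the forkhead gene Foxn3, had at most 0.224 RPKM in NAc, at most 0.575 RPKM in PFC and 3.47, 4.79 and 5.79 RPKM in PAG, while Foxn3 had 4.21, 3.46 and 7.24 RPKM. Gm10714 (chr2:174125038-174183918, minus strand), which lies without overlap near the aminopeptidase-like gene Npepl1, had 0.141, 0.176 and 0.352 RPKM in NAc, 0.0225, 0.0750 and 0.335 RPKM in PFC and 2.20, 2.97 and 3.69 RPKM in PAG, while Npepl1 had 3.20, 3.03 and 4.19 RPKM.

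The members lowest in PAG included A830036E02Rik, over the keratin gene Krt12. It averaged 6.68 ± 1.76 RPKM in NAc, 5.89 ± 1.33 RPKM in PFC and 0.177 ± 0.0462 RPKM in PAG SNI libraries (log2 fold change 3.37 ± 0.15 for NAc against PAG, adjusted p = 3.9e-13). Krt12 itself was at 1.2, 1.58 and 0.0696 RPKM. 4930556I23Rik had 5.12 ± 1.12, 3.56 ± 0.839 and 0.350 ± 0.111 RPKM, and Gm16339, in the ion exchanger gene Slc24a4, had 2.52 ± 0.349, 1.38 ± 0.167 and 0.222 ± 0.0828 RPKM. Gm11767 starts 65 bases from Baiap2, a synaptic actin scaffold, and had 6.23 ± 1.18, 3.99 ± 0.689 and 0.880 ± 0.332 RPKM, while Baiap2 had 96, 56.1 and 9.05 RPKM. The coding neighbour was called in the same direction as the member in both contrasts for all 4.

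2610017I09Rik behaved differently from its neighbour Pou3f3, a POU homeobox factor of the forebrain. It had 5.37, 6.02 and 6.40 RPKM in NAc, 5.44, 5.80 and 7.62 RPKM in PFC and 1.92, 2.40 and 2.54 RPKM in PAG SNI libraries, with a start 926 bases from that of Pou3f3. Pou3f3 was level, at 16.5, 15.4 and 16.8 RPKM, and its log2 fold changes against PAG were -0.04 for NAc and -0.13 for PFC. 2810455O05Rik likewise had 7.92 ± 0.635, 7.90 ± 0.545 and 1.28 ± 0.166 RPKM, beside 17.6, 20.9 and 18.1 RPKM of its non-overlapping neighbour Rab4a. Gm14286 had 11.4 ± 2.98, 6.17 ± 0.741 and 2.36 ± 0.427 RPKM, and was the only pair called in opposite directions: its neighbour Nnat, an imprinted gene, had 127, 44.8 and 154 RPKM, with a log2 fold change of -1.84 for PFC against PAG, against 1.23 ± 0.14 for Gm14286.

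Outside PAG, A830082K12Rik was lowest in NAc, at 0.544 ± 0.179 RPKM, against 2.56 ± 0.328 RPKM in PFC and 1.64 ± 0.0961 RPKM in PAG. It faces Nr2f1, an orphan nuclear receptor of cortical area patterning, which was lowest in NAc too, at 1.71, 8.85 and 5.70 RPKM. Gm13112 was lowest in PFC, at 1.72 ± 0.322, 0.0945 ± 0.0469 and 3.79 ± 0.404 RPKM.

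Across the 97 pairs the regional ratios of the antisense gene and of the coding gene went together. Pearson's r of the log2 ratios in SNI libraries was 0.79 for NAc over PFC, 0.72 for NAc over PAG and 0.71 for PFC over PAG, and Spearman's rank correlation was 0.57, 0.55 and 0.59. These are descriptions across genes, which are not independent replicates, and both genes of a pair come from the same libraries. Of the members called in a contrast whose partner was also tested, the partner was called the same way for 8 of 11 in NAc against PFC, 13 of 24 in NAc against PAG and 17 of 26 in PFC against PAG. Of all genes tested, 7%, 12.9% and 13.2% were called in these contrasts, in either direction. No share for pairs of unrelated genes is given, so these counts are a description.

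Highest regions were also compared by arrangement. The highest region in SNI libraries was the same for 55 of 97 pairs, for 35 of 55 with overlapping exons, 11 of 20 with introns, 6 of 12 with nearby starts and 3 of 10 with neither. No share for pairs of unrelated genes stands beside these counts, so nothing about position is read from them. Unstranded reads over shared exons could enter the 55 pairs with overlapping exons, and their part was not tested. Whether reads from introns of the coding gene enter the 20 pairs within or across introns was not tested either. In the 12 pairs with nearby starts and separate bodies, Pearson's r was 0.62, 0.87 and 0.86 for the same 3 ratios. The antisense gene was above the coding gene per length in 27 of 97 pairs, taken in its own highest region in sham libraries, and the median ratio was 0.506. The choice of members set a floor on the antisense level in those libraries and none on the coding gene, so these values are a description.

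**Figure D2:**
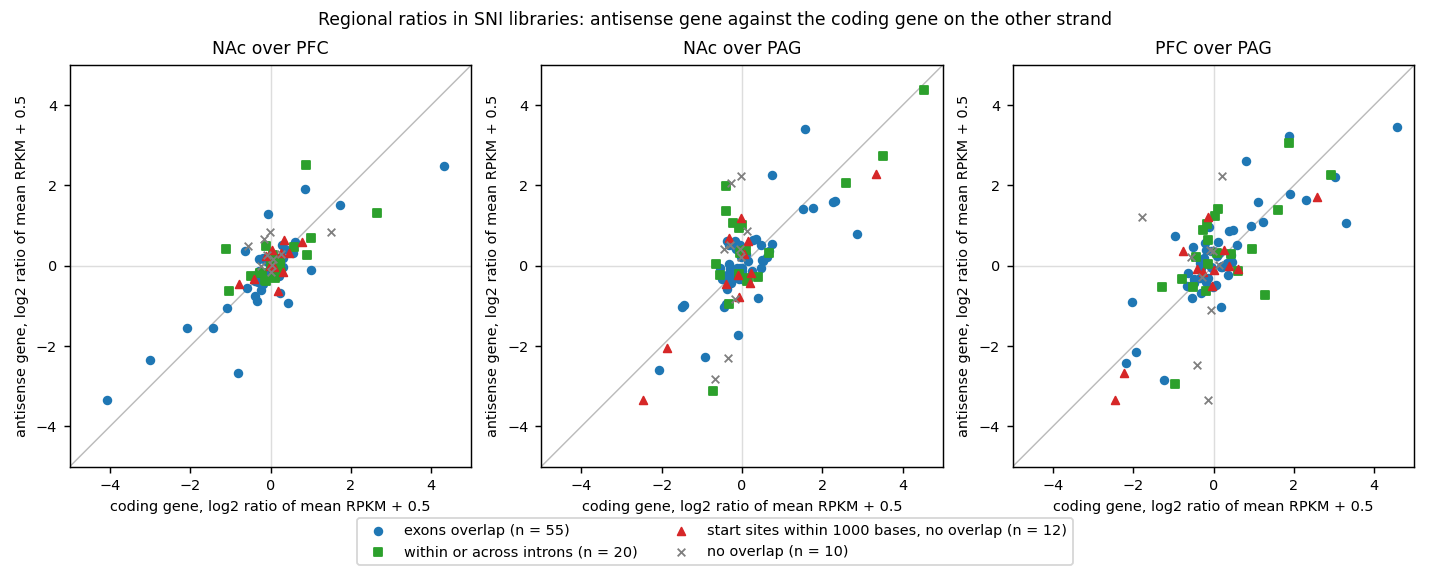
Log2 ratio of mean RPKM + 0.5 between 2 regions in the SNI libraries, for the antisense gene (vertical axis) against the coding gene on the other strand (horizontal axis), in the 97 pairs marked by arrangement; the grey diagonal marks equal ratios. Most pairs lie near 0, the pairs far from 0 mostly lie near the diagonal, and crosses for genes without overlap include several at a coding ratio near 0.

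Among pairs joined by name, Dlx1os had 1.52, 1.82 and 2.24 RPKM in NAc, 2, 2.28 and 2.89 RPKM in PFC and 0.789, 0.863 and 0.990 RPKM in PAG SNI libraries, while Dlx1, a homeobox factor of interneurons, had means of 3.43, 4.84 and 0.0383 RPKM. In PAG the row of the antisense gene thus had a level where that of the sense gene had almost none. The strand of those reads is not known. 4632419I22Rik, named Brip1os in M21, had SNI means of 1.72, 1.43 and 3.40 RPKM, while the helicase gene Brip1 was at 0.0269, 0.0238 and 0.0632 RPKM. 2610019E17Rik, named Rab26os, had 3.75, 2.69 and 4.74 RPKM and the synaptic vesicle GTPase gene Rab26 had 9.35, 20.9 and 8.33 RPKM, so PFC was lowest for the first and highest for the second.

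Some other named pairs kept closer, with the same highest region for both genes. D330022K07Rik had SNI means of 1.87, 2.57 and 0.389 RPKM in NAc, PFC and PAG, and its sense gene Sorbs2, an actin adaptor, had 10.7, 14.2 and 3.43 RPKM. Gm15552 and Prkag2, a regulatory subunit of AMP-activated kinase, had 1.56, 2.31 and 0.926 RPKM and 12.1, 14 and 7.04 RPKM. 1700006P19Rik and Far1, a reductase of ether lipid synthesis, had 3.77, 4.37 and 2.19 RPKM and 21.9, 22.8 and 17.2 RPKM. 1700011J10Rik, beside the transcription factor gene Sp3, had 4.88, 3.24 and 3.28 RPKM, and Sp3 had 14.6, 12 and 10.4 RPKM.

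Gm11602 had 2.32, 2.18 and 2.07 RPKM against 5.65, 4.97 and 3.87 RPKM of the chromatin remodelling gene Ino80d. C920011F04Rik had 1.84, 2.09 and 1.93 RPKM against 6.29, 7.83 and 9.47 RPKM of Ict1, a mitochondrial translation factor, whose highest region was PAG and not PFC. 1110035M17Rik had 1.55, 2.76 and 1.16 RPKM against 5.70, 4.81 and 5.25 RPKM of the zinc finger gene Zfp652. PFC was thus highest for the first and lowest for the second. C630016N16Rik had 4.88, 4.46 and 3.64 RPKM against 46.3, 43.1 and 61.3 RPKM of the membrane protein gene Tmem147. Here PAG was lowest for the first and highest for the second.

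SNI against sham was tested within each region, with a call at an adjusted p under 0.05. In NAc 0 of 92 tested members passed and in PFC 0 of 92, where 0% of all genes were called in either region. At an unadjusted p under 0.05 there were 5 members in NAc and 1 in PFC, beside 4.32% and 1.45% of all genes, and limma's voom on the reads recovered from the RPKM values called 0 members in both. The median log2 fold change of the members was -0.08 in NAc and -0.03 in PFC, against -0.02 and 0.00 over all genes tested. The choice of members by sham means can lower their SNI over sham values, so nothing is read from these medians.

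In NAc the smallest p belonged to Gm12207, 19737 bases from an olfactory receptor gene. It had 1.46, 1.66 and 1.98 RPKM in SNI libraries, against 2.03, 2.17 and 3.06 RPKM in sham libraries. The groups did not overlap, and the log2 fold change was -0.40 ± 0.10 with an adjusted p of 0.78 in limma. Gm17024 had 1.49, 1.98 and 2.36 RPKM in SNI against 1.94, 2.66 and 2.87 RPKM in sham libraries, and Gm8619, named Phf2os1 for a histone demethylase gene, had 4.87, 5.44 and 7.14 RPKM in SNI against 5.68, 6.93 and 7.89 RPKM in sham libraries. Both overlapped between groups and had an adjusted p of 0.78.

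In PFC the smallest p belonged to Gm15122 (chr10:80282444-80283006, minus strand), over the RNA-binding protein gene Dazap1. It had 3.90, 4.06 and 5.48 RPKM in SNI against 2.41, 3.41 and 4.29 RPKM in sham libraries (log2 fold change 0.31 ± 0.12). Gm12279 had 1.24, 1.61 and 2.21 RPKM in SNI against 1.55, 2.15 and 2.53 RPKM in sham libraries, and 0610040B10Rik had 1.04, 1.58 and 1.99 RPKM in SNI against 1.33, 2.01 and 2.53 RPKM in sham libraries. The groups overlapped for all 3, and limma's adjusted p was 1.

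In PAG 16 of 90 tested members passed, 7 higher and 9 lower in SNI, where 35.2% of all genes were called, 21.5% higher and 13.7% lower. The median log2 fold change was -0.05 over the members and -0.02 over all genes, and the same limit holds. With members chosen on means over SNI and sham libraries, 16 of 91 were called. The members' share called was 17.8%, below that of all genes, and no test of that difference was made. Of 191 other antisense rows that were tested, 9 were called.

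The library GC slope, the slope of log2 level on the GC content of genes relative to the regional mean, separated the PAG groups completely. It was 0.0359 to 0.218 log2 units per 10 percentage points in SNI libraries and -0.217 to -0.0246 in sham libraries, so this slope and SNI cannot be told apart in PAG. Median GC content was 56.0% in the 7 members that rose, 44.7% in the 9 that fell and 49.8% in the 72 others with a sequence. With the slope as a covariate 0 members were called, and with values corrected by it, using coefficients from the other 2 regions, 0 were called. In NAc the slope was -0.200 to 0.152 in SNI libraries and -0.185 to 0.0568 in sham libraries. PFC had -0.241 to 0.124 in SNI and -0.262 to 0.117 in sham libraries, so it spread widely there too, and the groups overlapped. The microglia list, 4 of 4 genes detected, summed to 60.2 to 79.8 RPKM in PAG SNI and 47.7 to 54.4 RPKM in PAG sham libraries, and the ependyma list, also 4 of 4 detected, to 42.7 to 49.3 RPKM in SNI and 35.8 to 43.5 RPKM in sham libraries. Within the microglia list C1qa and C1qb rose (log2 fold changes 0.79 and 0.31), while Csf1r (0.11) and Cx3cr1 (-0.02) did not pass. Of the ependyma genes Foxj1 rose (0.84), while Rsph1 (0.05), Ccdc153 (0.09) and Dnah11 (-0.10) did not pass. The oligodendrocyte genes Mbp (0.60) and Mag (0.39) rose and the other 4 of that list did not pass. Of the meninges and fibroblast genes Aebp1 (0.39) and Col1a2 (0.32) rose, while Slc6a13 (-0.07), Dcn (-0.14) and Igf2 (-0.05) did not pass. The part of these cell types in the calls was not tested.

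Gm26833 (chr6:39871532-39871971, minus strand), beside the membrane protein gene Tmem178b, rose most. It had 1.08, 3.07 and 6.79 RPKM in PAG SNI libraries, against 0.609, 1.18 and 1.39 RPKM in PAG sham libraries. The groups overlapped in 1 SNI library, and the spread was wide in every region, from 0.919 to 6.68 RPKM in PFC SNI and 1.08 to 7.44 RPKM in PFC sham libraries. The log2 fold change was 1.14 ± 0.28 with an adjusted p of 0.0072 in limma, and it turned to -0.50 with the slope as covariate and -0.15 with corrected values. The slope and SNI cannot be told apart in PAG, so this change of sign is not read as a fall. The GC content of Gm26833 was 66.4%, the highest among the members that rose.

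2010001M06Rik (chr5:135012114-135013253, minus strand), named Abhd11os for the mitochondrial hydrolase gene Abhd11, had 1.80, 2.43 and 2.74 RPKM in PAG SNI libraries, against 0.726, 1.18 and 1.47 RPKM in PAG sham libraries. The groups did not overlap. The log2 fold change was 0.80 ± 0.12 (limma, adjusted p = 0.00021), and 0.25 and 0.28 under the slope covariate and the correction. Abhd11 rose as well, at 8.86 ± 0.380 RPKM in SNI and 7.47 ± 0.355 RPKM in sham libraries.

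Gm15122 had 3.64, 4.32 and 5.68 RPKM in PAG SNI against 1.47, 2.53 and 3.45 RPKM in PAG sham libraries, without overlap (log2 fold change 0.74 ± 0.14, adjusted p = 0.0014 in limma). Under the slope covariate and the correction it was 0.51 and 0.40. Dazap1 rose by a log2 fold change of 0.29 ± 0.05. Gm16105 (chr10:81461159-81462972, plus strand) faces the RNA-binding protein gene Celf5 and has 77.9% of its exonic bases under exons of the other strand. It had 0.671, 0.791 and 1.40 RPKM in SNI against 0.231, 0.415 and 0.607 RPKM in sham libraries, also without overlap. Celf5 rose too, by 0.39 ± 0.08 on the log2 scale.

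E130003G02Rik (chr2:25291220-25298925, plus strand), named Grin1os, faces the obligatory NMDA receptor subunit gene Grin1. Exons of the other strand lie over 45.2% of the exonic bases of E130003G02Rik. It had 1.94, 2.17 and 2.34 RPKM in PAG SNI against 1.09, 1.60 and 1.96 RPKM in PAG sham libraries. The highest sham library lay just above the lowest SNI libraries. Its log2 fold change of 0.37 ± 0.09 was close to that of Grin1, 0.39 ± 0.07, which averaged 18.3 ± 2.30 RPKM in SNI and 13.8 ± 0.649 RPKM in sham libraries. Gm17201, facing Ankrd52, a subunit of protein phosphatase 6, has 59.5% of its exonic bases under exons of the other strand. It had 8.06, 10.6 and 11 RPKM in SNI against 6.60, 7.41 and 8.73 RPKM in sham libraries. Gm16001, near Ogfod2, was the 7th gene that rose, by a log2 fold change of 0.19.

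**Figure D3:**
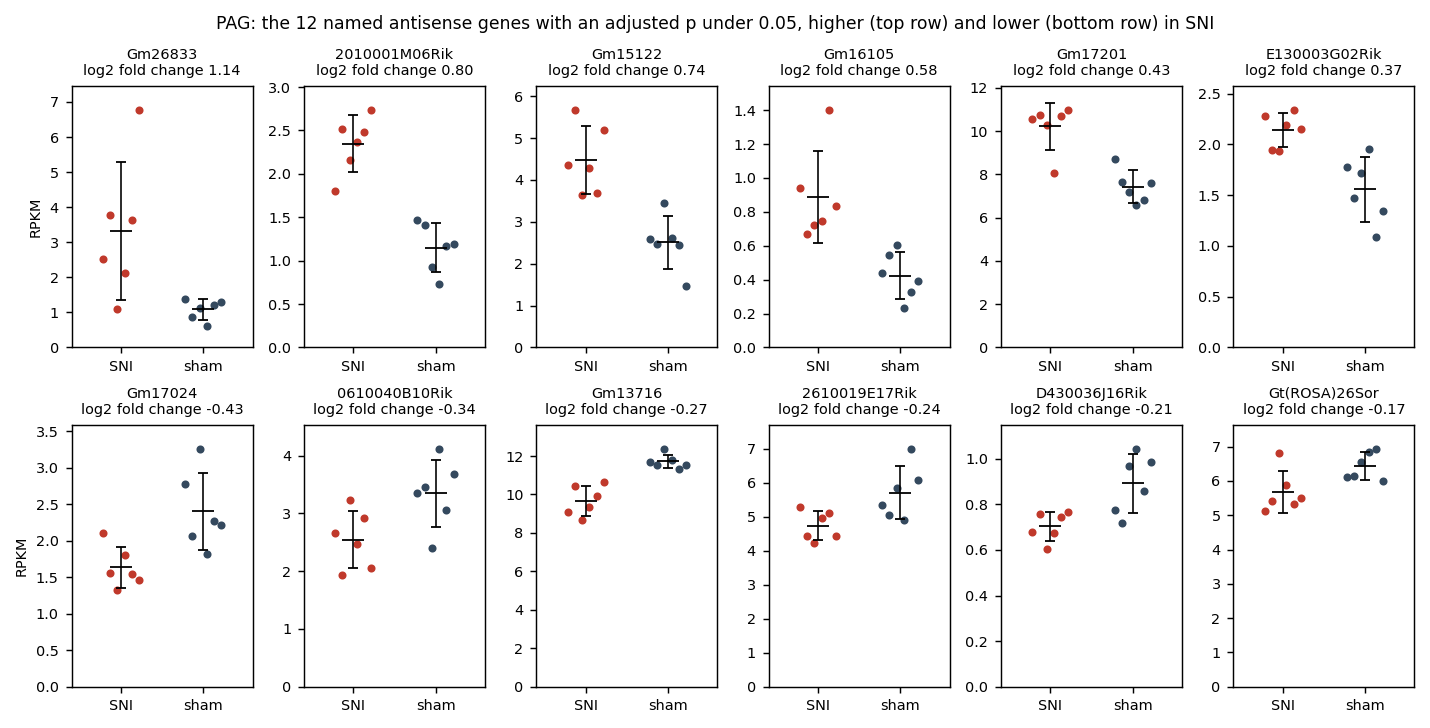
Level in RPKM (vertical axes, from 0) of the 12 named antisense genes with an adjusted p under 0.05 in PAG, in 6 SNI and 6 sham libraries each; points are libraries and bars mean ± SD. The groups do not overlap for 2010001M06Rik, Gm15122, Gm16105 and Gm13716, and overlap for the other 8. No share of all genes without overlap is given, and the library GC slope separates the same groups, so this is a description.

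Among the members that fell was Gm13716 (chr2:85196932-85198675, plus strand), whose groups did not overlap. It overlaps Lrrc55, an auxiliary subunit of the BK potassium channel, and had 8.67, 9.64 and 10.7 RPKM in PAG SNI libraries, against 11.3, 11.6 and 12.4 RPKM in PAG sham libraries (log2 fold change -0.27 ± 0.05, adjusted p = 0.00084 in limma). Lrrc55 had 6.04 ± 0.290 RPKM in SNI and 5.94 ± 0.264 RPKM in sham libraries and was not called. Gm17024 had 1.33, 1.55 and 2.11 RPKM in SNI against 1.82, 2.25 and 3.26 RPKM in sham libraries, with a log2 fold change of -0.43 ± 0.11.

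2610019E17Rik fell to 4.23, 4.71 and 5.28 RPKM in SNI, against 4.91, 5.59 and 7 RPKM in sham libraries, while Rab26 had 8.33 RPKM in SNI and 8.30 RPKM in sham libraries. D430036J16Rik had 0.602, 0.712 and 0.768 RPKM in SNI against 0.718, 0.915 and 1.04 RPKM in sham libraries, and Htr1b had 6.00 and 5.87 RPKM. Gt(ROSA)26Sor, the transcript of the Rosa26 locus used for knock-in alleles, had 5.12, 5.47 and 6.83 RPKM in SNI against 6.00, 6.34 and 6.94 RPKM in sham libraries. For 0610040B10Rik, 1.94, 2.57 and 3.24 RPKM in SNI stood against 2.40, 3.40 and 4.12 RPKM in sham libraries, while Zdhhc4, a palmitoyl transferase gene on the other strand, rose by 0.20 ± 0.05 on the log2 scale. Gm11458, 4632419I22Rik and Gm17344 were the other 3 that fell, the last by a log2 fold change of -0.12. 4632419I22Rik had 2.98 to 3.57 RPKM in SNI libraries, all below the lowest sham library, the highest of them only just.

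Of the named falls, 4 were not stable when 1 library was left out. Gt(ROSA)26Sor missed the threshold in 9 of 12 such fits, 0610040B10Rik in 9, D430036J16Rik in 7 and 2610019E17Rik in 6. The total of 16 was 10 without PAG sham library 28.

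Among the 80 pairs with both genes tested in PAG, 10 had both called, 7 of them in the same direction. The 3 called in opposite directions were 0610040B10Rik with Zdhhc4, Gm11458 with Zfp335, and Gm26833 with Tmem178b. In 5 pairs the antisense gene alone was called and in 30 the coding gene alone. These counts of pairs stand beside 35.2% of all genes called in PAG, and nothing about pairs is read from them. Zfp335 had 3.74 ± 0.626 RPKM in SNI and 2.30 ± 0.256 RPKM in sham libraries, a log2 fold change of 0.59 ± 0.10.

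**Figure D4:**
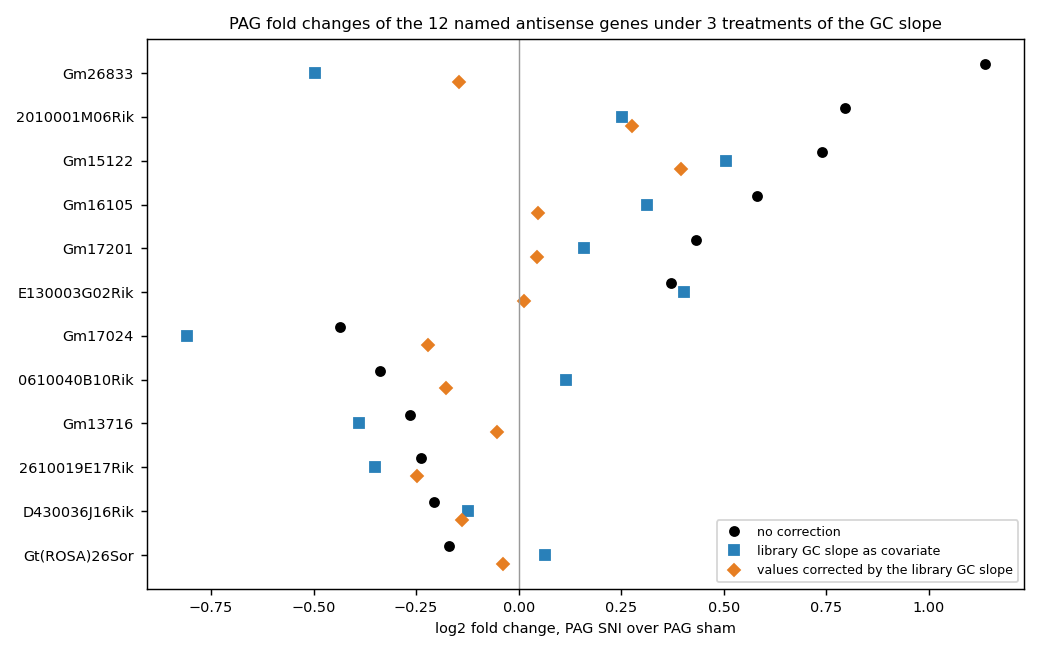
Log2 fold change of PAG SNI over PAG sham (horizontal axis) for the 12 named antisense genes, without correction (black circles), with the library GC slope as a covariate (blue squares) and with values corrected by the slope (orange diamonds). Gm26833 changes sign under both, and 0610040B10Rik and Gt(ROSA)26Sor under the covariate. No gene passes the threshold with either. The slope separates SNI from sham libraries in PAG, so a change of sign is not read as a reversal.

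The SNI effect was not shown to differ between regions. Tests of the difference called 0 of 100 members for PAG minus NAc, 0 for PAG minus PFC and 0 for PFC minus NAc, where 0% of all genes were called. For PAG minus PFC this rests on 1 library: without PFC sham library 13, the test called 1 member and 1144 of all genes. That library had the lowest GC slope of the PFC sham libraries, -0.262, and the part of the slope in this was not tested. At an unadjusted p under 0.05 there were 3, 5 and 1 members and 1405, 2779 and 178 genes in limma, and voom called 0 members in each.

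Genes that act on double-stranded RNA or on non-coding transcripts were described beside these transcripts, from a list of 32. In PAG 5 of 32 rose and 9 fell, where 21.5% of all genes rose and 13.7% fell, with a median log2 fold change of -0.06 beside -0.02 over all genes. Those that rose included Zc3h18 (0.38) and Zcchc8 (0.29), adaptors of the nuclear exosome, Tarbp2 (0.29), a partner of Dicer, and the RNA editing enzyme gene Adarb1 (0.18). Those that fell included the exonuclease genes Xrn1 (-0.27), Xrn2 (-0.17) and Dis3 (-0.20) and the double-stranded RNA sensors Tlr3 (-0.22) and Eif2ak2 (-0.21). In NAc and PFC 0 of 31 tested genes of the list passed, with 3 and 0 at an unadjusted p under 0.05. The PAG calls share the separation of the GC slope given above.

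Gm15564 (chr16:35966752-35983230, minus strand) had single libraries far from the rest in several groups. It lies in an intron of the importin gene Kpna1. It had 5.23, 6.42 and 43.05 RPKM in NAc SNI against 6.21, 8.95 and 17.3 RPKM in NAc sham libraries. In PFC it had 3.86, 6.27 and 67.3 RPKM in SNI against 3.55, 4.8 and 19 RPKM in sham libraries. PAG SNI libraries lay between 4.33 and 7.11 RPKM, and PAG sham libraries between 6.11 and 34.9 RPKM. No comparison of surgery or of regions called it.

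**Figure D5:**
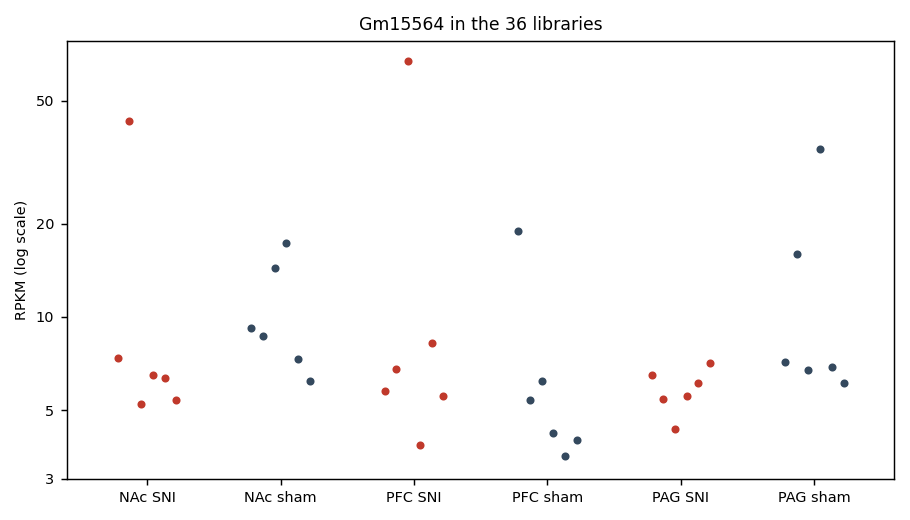
Level of Gm15564 in RPKM (vertical axis, log scale) in each of the 36 libraries, by group; points are libraries, red for SNI and dark blue for sham. The lowest library lies at 3.55 RPKM, and single libraries of NAc SNI, PFC SNI and PAG sham stand at 43.05, 67.3 and 34.9 RPKM.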

How the data were processed

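The authors deposited 1 table of RPKM values for 31554 genes in 36 libraries. TopHat2, HTSeq and mouse build mm10 are named, per the submitters' processing notes, without versions, settings or strand mode. Per the labels' protocol, polyadenylated RNA went into a TruSeq RNA kit from pooled RNA. Multiplied by length and depth, 100% of values were whole reads (tolerance 0.001). Among 90 pairs of libraries within groups, chi-square divided by its degrees of freedom was at least 3.89, so none were copies.

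RPKM values are not counts, so limma 3.58.1 (R 4.3.3; empirical Bayes with a trend) was run on log2(RPKM + 0.5), for genes averaging at least 0.5 RPKM over the libraries of a fit, with two-sided p-values adjusted by Benjamini-Hochberg over all genes at 0.05. SNI was compared with sham in the 12 libraries of a region, regions in the 18 SNI libraries, and differences of SNI effects in 1 model of 36. The fits were tested on simulated data. Coding neighbours came from GENCODE M21, promoters from RefSeq.

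Named members were, per region, the 5 of highest sham mean, the 4 of largest regional ratio, the 6 largest called SNI changes each way (or the 3 smallest p), those named for a sense gene, and those beside the threshold. The other members named (lower in 1 region than both others, Gm13629, Gm10714, Gm16001, Gm11458, 4632419I22Rik) were added after their values were seen. Members and gene lists were chosen with earlier results of these data known. Alternatives were other pseudocounts, filters and scalings, voom on recovered reads, array weights, the GC slope as covariate, 1 model of all libraries, and each library left out. The correction by the GC slope and a choice of members over SNI and sham means were added after seeing the data. Some results are not reported here.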

Additional observations from a re-analysis of the deposited data

Results flagged for a closer look

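A library was picked out where, in a group of 6, its gap to the nearest of the others, as a share of the group's whole range, exceeded Dixon's 95% critical value. Of 205 groups of named genes, 17 were picked, and chance gives about 1 in 20.

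Gm15564 was high in NAc SNI library 8 (43.05 RPKM), PFC SNI library 21 (67.3 RPKM), PFC sham library 13 (19 RPKM) and PAG sham library 28 (34.9 RPKM). Fcor was high in NAc SNI library 11 (9.46 RPKM) and low in PAG SNI library 36 (2.53 RPKM). Gm15122 was high in PFC SNI library 24 (5.48 RPKM), and Gm16105 in PAG SNI library 35 (1.40 RPKM). Gm17201 was low in PAG SNI library 34 (8.06 RPKM), and Gm3693 in NAc SNI library 10 (0.985 RPKM).

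In sham libraries, Gt(ROSA)26Sor was high in NAc library 1 (8.97 RPKM), Gm16054 in PFC library 13 (2.77 RPKM) and Gm12207 in PAG library 27 (2.52 RPKM). Gm26833 was low in PFC library 13 (1.08 RPKM), Gm17024 in PFC library 15 (1.95 RPKM), Gm16185 in PAG library 25 (3.92 RPKM) and Gm12279 in PAG library 29 (1.06 RPKM).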

How the results depend on the processing

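In PAG, SNI against sham called 16 members, 10 with no filter, 7 in 1 model of all 36 libraries, and 0 with the GC slope as covariate or with corrected values. Leaving out 1 library gave 10 (without PAG sham 28) to 20 (without PAG SNI 33). With quantile scaling it called 24 members, 6 higher and 18 lower, against 7 and 9; over all genes 2924 higher and 4019 lower, against 3360 and 2135. Over all genes, 5495 calls became 0 with the GC slope as covariate, 20 with corrected values and 3337 in 1 model. Under the covariate the log2 fold change turned to -0.50 for Gm26833, 0.12 for 0610040B10Rik and 0.063 for Gt(ROSA)26Sor, and with corrected values to -0.15 for Gm26833; the cause was not tested.

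Between regions, NAc against PFC called 12 members, 3 with a filter of 2 RPKM (66 members left) and 55 with no fold minimum; NAc against PAG 25, 15 and 73; PFC against PAG 28, 15 and 70. Leaving out 1 library gave 11 to 13, 24 to 28 and 27 to 29. SNI called 0 members in NAc and PFC under every alternative run. Differences of SNI effects called 0, except 1 for PAG minus PFC without PFC sham 13, where 1144 of all genes were called. Of the values of single named genes, 254 kept direction and side of the threshold over the other alternatives, 33 missed the threshold and 4 reversed; over fits without 1 library, 401 kept both and 31 missed it. No paired analysis was possible because the groups compared share no replicate numbers.

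Depth limits low members: at 2 RPKM a gene of 1 kb rests on 55.2 reads in the shallowest library. Genes shorter than 1 kb, such as Gm26833, rest on fewer reads at the same level, and levels under 2 RPKM on fewer still.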
